A study of Homo sapiens with 6 samples.

Results

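Ribosome biogenesis and nucleolar factors were followed here as 35 named genes, chosen by symbol, in a table of 10072 genes from Calu-6, a human lung carcinoma line. Rows were found for 31 of the 35, and 17 had enough counts for the test among 3888 genes tested. Polyadenylated RNA was read as full-length cDNA on a nanopore sequencer in 6 libraries. The 3 siControl libraries came from cells given a non-targeting scrambled siRNA, and the 3 siDelta2-4 libraries from cells given an siRNA against Delta 2-4, a splice variant of TERT, the telomerase reverse transcriptase. Both siRNAs were used at 10 nM for 48 h. The sample labels call all cells wild type, while the count columns carry the word Empty and the study's methods describe a stable empty Flag-V5 vector line, so all 6 libraries may share that vector. The columns show the group but not which sample each one is, and libraries are therefore named here by group and by total count (highest, middle or lowest).

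Totals ran from 1037468 to 1309241 counts per library, and 3 counts, the limit that a count of 0 allows, corresponded to 2.3 to 2.92 CPM (counts scaled to a common library size), for counting error alone. TERT had 0 rows in the table, so the loss of its variant could not be checked in these counts. Of the defining markers of a lung carcinoma line, the keratins KRT8 and KRT18 had 824 and 1124 counts and VIM, vimentin, had 987, while KRT7 had 41, EPCAM 13, FN1 2 and KRT19 1 count and CDH1 and CDH2 had no row. Of the leukocyte list CD14 and LYZ had 5 counts each, and the endothelial and fibroblast lists had 0 genes in the table. On the first principal component the siControl library of lowest total stood at -0.36, apart from the other siControl libraries at -16.88 and -15.2 and toward the siDelta2-4 libraries at 8.71 to 13.8. Leaving it out raised the number of genes called in the whole table from 504 to 1041, and none of the 35 genes followed here was among them. The study calls the libraries of a group biological replicates, but the labels do not say that they came from separate cultures, and the p-values measure the spread between these libraries. In bulk RNA, fewer cells expressing a gene and less RNA per cell cannot be told apart.

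Ribosomes are built mainly in the nucleolus, where RNA polymerase I makes one long precursor that is modified, cut and folded together with ribosomal proteins. Box C/D snoRNPs, which carry the proteins FBL, NOP56, NOP58 and SNU13, guide 2′-O-methylation of the ribosomal RNA. The small subunit processome, to which IMP3, IMP4 and the UTP proteins belong, folds and cuts the 18S part, and a second series of factors, among them the PES1-BOP1-WDR12 complex and the RPF2-RRS1 pair, matures the large subunit. Many of these genes are expressed together in growing cells, and in many tumors they follow MYC.

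None of the 17 tested genes followed here passed the test between siDelta2-4 and siControl cells. With edgeR's quasi-likelihood test and an adjusted p under 0.1, 0 of 17 were called, against 13% of all genes tested in either direction, 7% in the higher and 5.97% in the lower direction. An unadjusted p below 0.05 was likewise reached by 0 of 17, against 23.1% of all genes, and DESeq2 called 0. The number with an unadjusted p below 0.05 was 1 with library totals in place of TMM and with the length trend removed. It was also 1 without the siControl library of lowest total or the siDelta2-4 library of lowest or of middle total, and 2 of 31 with no filter. In each of these settings 0 were called at an adjusted p under 0.1. The smallest p was that of UTP11, a processome protein, at 0.0557, with an edgeR adjusted p of 0.226. Log2 fold changes (siDelta2-4 minus siControl) ran from -0.53 for NOB1 to 0.55 for FBL, with 11 of 17 above 0 and a median of 0.218, beside a median of 0.027 and 53.9% above 0 over all genes tested. Standard errors ran from 0.10 to 0.37 on the log2 scale, so differences of the size of most of these log2 fold changes could not be told from 0 at this depth. Their median was 0.26 beside 0.21 over all genes tested, and the median level was 24.1 CPM beside 37.2 CPM. The shares of called genes are therefore not matched for level or precision. Levels that did not overlap between the groups were seen for 2 of 17, FBL and RPF2, both higher in siDelta2-4, against 26% of all genes.

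**Figure D1:**
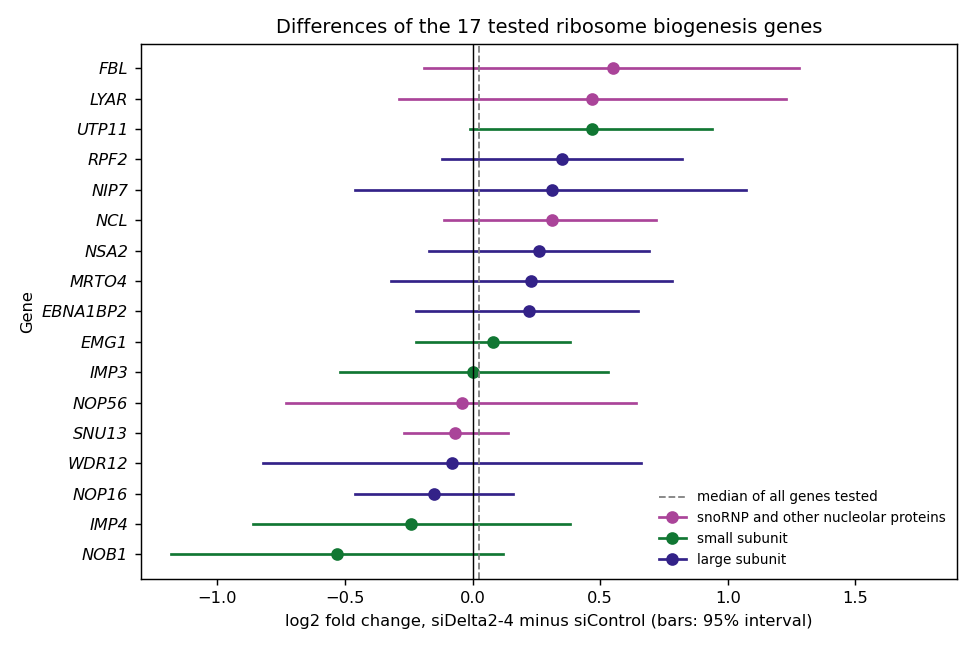
Log2 fold change (siDelta2-4 minus siControl, x axis) of the 17 tested ribosome biogenesis genes, one per row, colored by role, with bars for the 95% interval. Every interval includes 0, from NOB1 at -0.53 to FBL at 0.55. The dashed line is the median of all genes tested, 0.027.

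SNU13, on chr22:41673933-41690504 of GRCh38 (minus strand), was by far the most abundant of these transcripts. Its protein binds the kink-turn of box C/D snoRNAs and also of U4 snRNA in the spliceosome. It was counted 493, 484 and 411 times in the siControl libraries of highest, middle and lowest total and 619, 475 and 444 times in the siDelta2-4 libraries, or 481, 464 and 394 CPM against 475, 386 and 416 CPM. The groups overlapped over most of their range, and the log2 fold change was -0.07 (SE 0.10, 95% interval -0.27 to 0.14; edgeR adjusted p = 0.745). This interval was the narrowest among the 17 genes. SNU13 alone held 47% of the 6221 counts of the 31 genes, and the 5 most abundant held 73%.

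NCL encodes nucleolin, an RNA-binding protein that is among the most abundant of the nucleolus, and lies on chr2:231453531-231483641 (minus strand). Its levels were 39, 43.2 and 33.5 CPM in siControl and 55.2, 34.9 and 53.4 CPM in siDelta2-4. The siDelta2-4 libraries of highest and lowest total lay above every siControl library, and the one of middle total lay within their range. The log2 fold change was 0.31 (SE 0.20, 95% interval -0.11 to 0.72; edgeR adjusted p = 0.376).

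FBL, fibrillarin, the methyltransferase of the box C/D particle, lies on chr19:39834458-39846379 (minus strand). Its counts were 9, 7 and 7 in the siControl libraries and 13 in each siDelta2-4 library, or 8.77, 6.71 and 6.7 CPM against 9.98, 10.6 and 12.2 CPM. Every siDelta2-4 library lay above every siControl library, and the log2 fold change was the highest of the 17 at 0.55 (SE 0.36, 95% interval -0.19 to 1.28; edgeR adjusted p = 0.38). NOP58, which pairs with NOP56 in the same particle, was below the filter on low counts, with counts of 4, 1 and 5 against 7, 6 and 8 (3.9, 0.959 and 4.79 CPM in siControl, then 5.37, 4.88 and 7.49 CPM in siDelta2-4). Its 3 higher levels were also in siDelta2-4, but the gap between the groups, from 4.79 to 4.88 CPM, was smaller than the worth of 1 count. NOP56 had 9.75 to 11.5 CPM in siControl and 9.75 to 11.2 CPM in siDelta2-4, with a log2 fold change of -0.04 (SE 0.33). LYAR, a nucleolar zinc finger protein, gave 0.47 (SE 0.37) with overlapping groups, and NOLC1, a chaperone of snoRNPs, had 12 counts in all 6 libraries together.

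**Figure D2:**
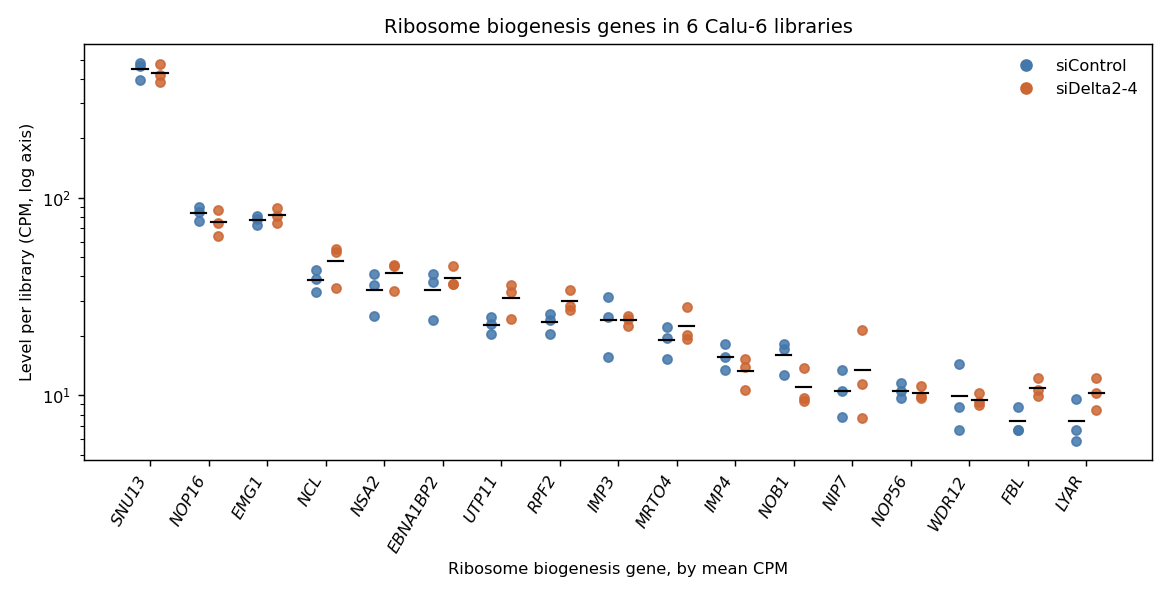
Level (CPM, log axis) of the 17 tested ribosome biogenesis genes in each of 3 siControl and 3 siDelta2-4 libraries, ordered by mean level, with short black lines for the group means. SNU13 lies near 436 CPM and the other 16 at or below 90.1 CPM. FBL and RPF2 are the genes whose groups do not overlap.

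Small subunit factors were led by EMG1, the methyltransferase that modifies a pseudouridine of 18S rRNA, on chr12:6970913-6979936 (plus strand). It was found at 80.9, 77.7 and 72.8 CPM in siControl and at 81.3, 74.8 and 89 CPM in siDelta2-4. The ranges overlapped, with a log2 fold change of 0.08 (SE 0.15, 95% interval -0.22 to 0.38; edgeR adjusted p = 0.796). UTP11 had 20.5, 23 and 24.9 CPM in siControl and 36.1, 33.3 and 24.3 CPM in siDelta2-4, where the library of lowest total lay inside the siControl range, and its log2 fold change was 0.47 (SE 0.23, 95% interval -0.01 to 0.94). NOB1, the nuclease that trims the end of 18S rRNA in the cytoplasm, had the lowest value at -0.53 (SE 0.32, 95% interval -1.18 to 0.12; edgeR adjusted p = 0.322), from 12.7 to 18.2 CPM in siControl and 9.36 to 13.8 CPM in siDelta2-4. IMP3 and IMP4, partners in the U3 snoRNP, gave 0.00 (SE 0.26) and -0.24 (SE 0.30). Of the 5 tested small subunit genes 3 had values above 0, and their median was 0.003.

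Large subunit factors gave 5 of 7 tested values above 0, with a median of 0.232. NOP16, on chr5:176383946-176388927 (minus strand), was the most abundant at 84.8, 90.1 and 76.6 CPM in siControl and 86.7, 64.2 and 74.9 CPM in siDelta2-4. The lowest 2 of the 6 levels were in siDelta2-4, but the groups overlapped and the log2 fold change was -0.15 (SE 0.15, 95% interval -0.46 to 0.16; edgeR adjusted p = 0.585). NSA2, a factor of late pre-60S particles on chr5:74766991-74780113 (plus strand), had 25.3, 36.4 and 41.2 CPM in siControl and 33.8, 45.5 and 44.9 CPM in siDelta2-4, with a log2 fold change of 0.26 (SE 0.21, 95% interval -0.17 to 0.69; edgeR adjusted p = 0.487). Here, too, the groups overlapped, through the siDelta2-4 library of highest total. RPF2, which brings the 5S particle into the large subunit, lies on chr6:110982015-111028263 (plus strand) and had 20.5, 24 and 25.9 CPM in siControl and 28.4, 34.1 and 27.2 CPM in siDelta2-4. All 3 siDelta2-4 levels lay above the siControl levels, with a log2 fold change of 0.35 (SE 0.23, 95% interval -0.12 to 0.82; edgeR adjusted p = 0.371). The remaining tested genes of this group gave log2 fold changes of 0.22 (EBNA1BP2), 0.23 (MRTO4, a stand-in for the stalk protein during assembly), 0.31 (NIP7) and -0.08 (WDR12). All 4 had overlapping groups and standard errors of 0.21 to 0.37.

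Per length, the order of the levels differed from that of the raw CPM. Each count is a single cDNA read whatever its length, so the values per kb are a description only and not a better measure of level. EMG1 and NOP16 were alike by CPM (79.4 and 79.6) and differed per kb through the mean lengths of their models (4514 and 912 bases). Divided by the mean length of the counted transcript models, SNU13 stood at 337 CPM per kb, NOP16 at 87.2, NCL at 42.1, EBNA1BP2 at 27.3, IMP3 at 21.2 and EMG1 at 17.6 CPM per kb. WDR12 was the lowest of the tested genes at 1.2 CPM per kb, on a model of 8068 bases, while by CPM (9.72) it lay above FBL (9.15) and LYAR (8.84). The place of NCL in the order per kb rests on incomplete models, described further on.

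The 14 genes below the filter had 242 counts between them, from 1 count for NOP2, a methyltransferase of 28S rRNA, to 44 for PNO1, the partner of NOB1. GNL3, nucleostemin, was counted 0, 3 and 8 times in the siControl libraries against 11, 13 and 6 times, and its groups overlapped through the siControl library of lowest total. Without a filter, GNL3 had the smallest p of these genes at 0.015, with an edgeR adjusted p of 0.213. RRP7A had lower CPM in all siDelta2-4 libraries (0.767, 0 and 0.936) than in siControl (1.95, 0.959 and 0.958), which rests on 2, 1 and 1 counts against 1, 0 and 1. UTP3 had 38 counts, RRS1 21, UTP18 16, RRP9 10, PES1 9, UTP14A 6, BYSL 4 and RRP36 3. Differences in these genes were not detectable at this depth. BOP1, NOP53, RRP1 and TSR3 had no row and were not analysed here.

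Summed over genes, the levels were 930, 929 and 871 CPM in siControl and 997, 878 and 946 CPM in siDelta2-4 for all 31 genes, which overlapped. As a share of all counts of a library, without the scaling between libraries, the same genes took 0.0862% to 0.0899% in siControl and 0.0912% to 0.0992% in siDelta2-4, so whether the groups overlapped depended on the scaling. With SNU13 set aside, a choice made after its weight was seen, the other 30 genes summed to 449, 465 and 477 CPM in siControl and to 522, 492 and 530 CPM in siDelta2-4. The lowest siDelta2-4 library then lay above the highest siControl library, and the means of 464 ± 13.8 and 514 ± 20.2 CPM (SD, n = 3) were in a ratio of 1.11. The 16 tested genes among them overlapped, at 416, 442 and 446 CPM in siControl and 486, 441 and 490 CPM in siDelta2-4. In CPM the separation of the 30 therefore rests also on the genes below the filter. As a share of library counts the 16 did not overlap, at 0.0386% to 0.0449% in siControl and 0.0459% to 0.0489% in siDelta2-4. The 11 large subunit genes gave 223 ± 9.15 and 245 ± 9.22 CPM, without overlap, and the 13 small subunit genes 173 ± 6.75 and 182 ± 4.63 CPM (SD, n = 3), with overlap.

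All 7 snoRNP and other nucleolar genes summed to 514 ± 48.7 CPM in siControl and 513 ± 52 CPM in siDelta2-4 (SD, n = 3), with overlap. Without SNU13 the sum of the other 6 was 68.1 ± 2.62 CPM in siControl and 87.7 ± 10.1 CPM in siDelta2-4 (SD, n = 3), a ratio of 1.29 without overlap. NCL alone held 292 of the 527 counts of these 6 genes, mostly on incomplete models, with means of 38.6 and 47.9 CPM and overlapping groups. The 14 genes below the filter gave 28.9 ± 5.28 and 42.2 ± 7.36 CPM, a ratio of 1.46, again without overlap. These sums carry no test. Every one of the 21472 transcript models in the table had at least 1 count in siDelta2-4, so models counted in siControl alone are not in it, which favors higher siDelta2-4 sums for genes of few counts. Restricted to models counted in both groups, the ratio was 1.38 for the genes below the filter and 1.10 for the 30 genes without SNU13. The sum of 108 other ribosome biogenesis genes had a ratio of 1.08, from 3990 ± 153 to 4290 ± 114 CPM (SD, n = 3), a difference of 299 CPM. That difference is a net of rises and falls. NPM1, described further on, went from a mean of 879 CPM in siControl to 1150 CPM in siDelta2-4, and TRMT112 from 698 to 566 CPM.

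**Figure D3:**
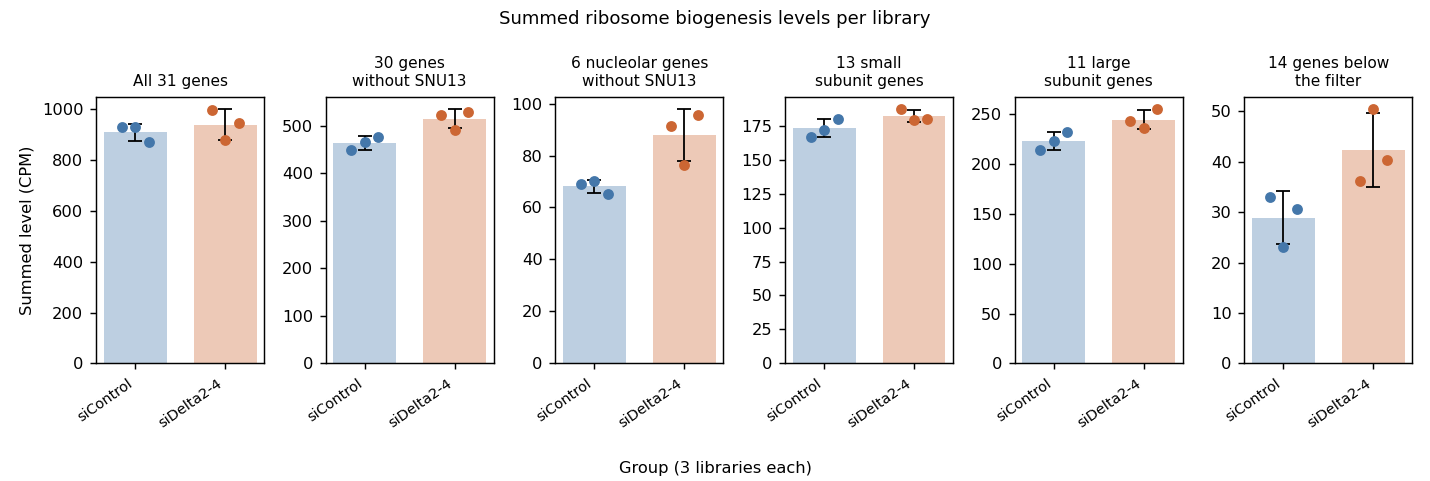
Summed level (CPM, axis from 0, separate for each panel) per library for all 31 ribosome biogenesis genes, for the 30 without SNU13, and by group of genes, with bars for the mean, error bars for the SD and points for the 3 libraries of each group. The groups overlap for all 31 genes and for the small subunit genes, and do not for the other sums.

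The transcript models under these sums were mostly annotated ones. Known models took 90.1% of the counts of the 31 genes, beside 45.3% in the whole table, and none of their 64 models had a new splice junction or a new combination of junctions. The whole table also holds unannotated antisense (7.98% of counts) and intergenic (0.401%) loci, which genes chosen by symbol cannot include. New models of low support had been removed, so genes of few counts had little room to show any, and SNU13 alone held 47% of the counts of the 31 genes. Of 20 models that could be tested, 0 were called by edgeR at an adjusted p under 0.1, against 6.91% of 6768 models. UTP11-201 was the 1 model of the 20 with an unadjusted edgeR p under 0.05 (0.0486). The share of all models under that limit was not counted, so this is a description only. The share of each model within its gene could be tested for SNU13, NCL and NOP16, and 0 of 3 were called (edgeR adjusted p of 0.766, 0.86 and 0.871), against 0.618% of 1132 genes.

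SNU13 was counted mainly on SNU13-202, of 1458 bases, with 61.3% of its counts, and on SNU13-201, of 877 bases, with 25.9%. An incomplete model of 1384 bases holding the 3′ part of the gene took 11.5%. Its share was 12.2%, 13.2% and 12.9% in siControl and 12%, 10.9% and 7.66% in siDelta2-4. The siDelta2-4 shares lay below the siControl shares, with a log2 fold change of the model of -0.34 (SE 0.19) and an edgeR adjusted p of 0.381. Shares without overlap were also seen for NOP16-207 (60.6% to 63.2% in siControl, 65.5% to 68.8% in siDelta2-4). The same held for NSA2-205 (88.5% to 92.1% in siControl, 93.2% to 100% in siDelta2-4). How many models of the whole table had shares without overlap was not counted. EMG1-202 held 91.6% of the counts of EMG1, NSA2-205 93.7% of those of NSA2 and RPF2-203 96.1% of those of RPF2. The counts of NOP16 were split between NOP16-207 (64.4%) and NOP16-210 (27.2%), while NOP56-201 held 58.6% and IMP4-201 73.2% of the counts of their genes.

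NCL was the exception, since nearly all of its counts fell on incomplete models that hold the 5′ part of the gene. A model of 4 exons and 976 bases took 68.5% and one of 3 exons and 754 bases took 27.4%, while the annotated models of 14 exons had 12 of 292 counts. The incomplete models held 94.3% to 97.8% of the counts in siControl and 94.7% to 97.7% in siDelta2-4, ranges that overlapped. A share of such models as high as that of NCL (95.9%) was found in 33 of 2367 annotated genes tested, or 1.39%. The first 3 exons of NCL-201 add up to 744 bases and the first 4 to 942 bases, close to the lengths of the incomplete models. The NCL level therefore rests on reads assigned to incomplete models, and whether these were short RNAs or incomplete copies of longer ones was not tested.

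**Figure D4:**
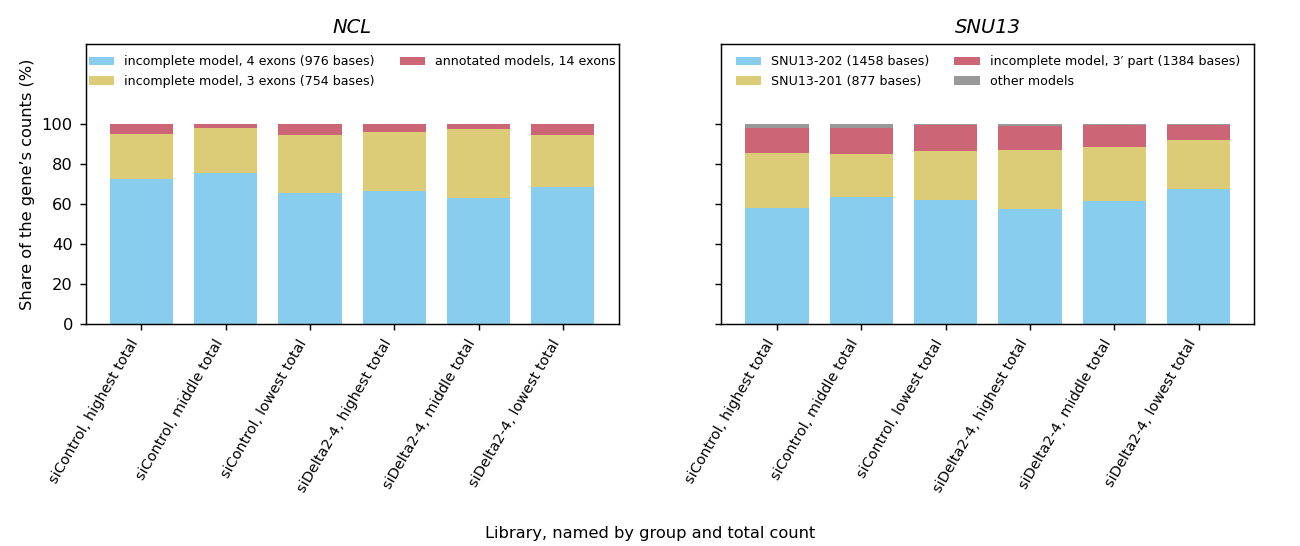
Share of the counts of NCL (left) and SNU13 (right) on each transcript model, in percent, in 6 libraries named by group and total count. In NCL the incomplete models of 4 and 3 exons take 94.3% to 97.8% in every library, and in SNU13 the annotated models take most counts.

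Genes on the opposite strand overlapped several of these genes, and the handling of strand in the counting is not given in the sources used here. Only annotated genes were searched for such overlaps, and the unannotated antisense loci were not. HIGD2A, a mitochondrial protein gene with 1753 counts, overlaps NOP16 (533 counts) by 177 bases and had a log2 fold change of -0.07 (SE 0.11). The lncRNA ENSG00000275454 (139 counts) lies within IMP3 (162 counts) and gave 0.02 (SE 0.27). NQO1-DT (58 counts) overlaps NOB1 (90 counts), and TCN2 (6 counts) and ENSG00000272223 (3 counts) overlap PES1 and RRP36. Reads of these pairs cannot be told apart without strand. Neither HIGD2A nor ENSG00000275454 was called (edgeR adjusted p of 0.749 and 0.976).

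Ribosome biogenesis promoters often hold the E-box CACGTG, the letters bound by MYC with MAX and by other factors such as USF, and the members were searched for it in the RefSeq promoter windows of GRCh38.p14, from 250 bases before to 50 bases after each annotated start. Windows were found for 29 of the 35 genes. The palindrome CACGTG, which reads alike on both strands, was in 14 of 29 (48.3%), beside 12.4% of the 5608 genes of the count table with a window and 8.77% of all 27305 windowed genes. Of its 18 copies, 10 began after the start, 7 of them within 20 bases. The windows of 30 bases below hold those 7 copies and that of LYAR, a tested gene, with the E-box in capitals. They were picked for their place, and the 10 copies beyond those and that of LYAR lie between -241 and +43. Positions give the first base of the E-box counted from the start. The copies lie at +7 in FBL (chr19:39846356-39846385, minus strand), at -64 in LYAR (chr4:4290068-4290097, minus strand), at +5 in UTP18 (chr17:51260538-51260567, plus strand), at +10 in PNO1 (chr2:68157885-68157914, plus strand), at +16 in IMP4 (chr2:130342900-130342929, plus strand), at +7 in GNL3 (chr3:52686026-52686055, plus strand), at +15 in MRTO4 (chr1:19251807-19251836, plus strand) and at +14 in PES1 (chr22:30591880-30591909, minus strand):
FBL: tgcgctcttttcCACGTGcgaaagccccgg
LYAR: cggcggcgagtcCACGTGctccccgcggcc
UTP18: gcagcgaggttcCACGTGagcgcctgcgtt
PNO1: ggtgcagctgcgCACGTGtttcagccggca
IMP4: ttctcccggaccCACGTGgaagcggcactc
GNL3: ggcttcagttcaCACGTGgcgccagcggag
MRTO4: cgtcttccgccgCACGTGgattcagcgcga
PES1: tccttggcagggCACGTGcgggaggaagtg
A match of these letters is a description and does not show that a factor binds there.

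The other motifs, searched on both strands and counted even where they overlap one another, were less set apart. The ETS motif CCGGAAG was in 37.9% of the members and 26.2% of the table's genes, CCAAT in 41.4% and 44.4%, the GC box GGGCGG in 51.7% and 74.2% and TATAAA in 3.45% and 8.86%. The 5 tested genes with the E-box CACGTG (EBNA1BP2, FBL, IMP4, LYAR and MRTO4) had log2 fold changes from -0.24 to 0.55 with a median of 0.23, and the 10 with a window but no E-box from -0.53 to 0.47 with a median of 0.04, ranges that overlapped over most of their length.

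Some of these genes also hold snoRNA genes within their span, on the same strand. By the annotation these were 5 of the 35 (NCL, NOP56, NOP58, GNL3 and NOP53), 14.3% beside 1.85% of the 6150 protein-coding genes in the table. Examples are SNORD20 and SNORD82 in NCL and SNORD56 and SNORD57 in NOP56. None of these snoRNAs had a row.

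Transcript length went with the fold changes of the whole table. Across all 3888 genes tested, log2 fold change and mean model length had a Spearman rho of 0.326, a description across genes of one comparison that share the same libraries. Over the 17 ribosome biogenesis genes it was -0.0833. Their median length was 1716 bases, beside 1143 bases for all genes tested. Library by library, the rho between length and the deviation from the mean of each gene was -0.318 and -0.326 in the siControl libraries of highest and middle total. It was 0.123 in the siControl library of lowest total and 0.145, 0.362 and 0.137 in the siDelta2-4 libraries of highest, middle and lowest total. The length trend thus differed within siControl as well as between the groups. With the length trend of each library removed, the median of the 17 was 0.122 in place of 0.218 on the log2 scale, beside 0.055 for all genes.

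Other ribosome biogenesis genes were taken from a list of 150, of which 108 had rows and 37 were tested. Of these, 6 were called (16.2%, beside 13% of all genes tested), 5 higher and 1 lower in siDelta2-4, and 29 of 37 had values above 0 with a median of 0.181. NPM1, nucleophosmin, the most abundant of them, had 849, 767 and 1020 CPM in siControl and 1160, 1190 and 1110 CPM in siDelta2-4. The groups did not overlap, and NPM1 rose by 0.39 on the log2 scale (SE 0.09; edgeR adjusted p = 0.00763). Its processed copies NPM1P27 and NPM1P6 had 99 and 18 counts beside its 6901. The other genes that rose were MPHOSPH6, an exosome cofactor, by 0.82 (SE 0.24), SBDS, which frees the large subunit from EIF6, by 0.87 (SE 0.26), POLR1C, a subunit of RNA polymerases I and III, by 1.03 (SE 0.36), and C1D, another exosome cofactor, by 0.69 (SE 0.25), with edgeR adjusted p-values of 0.0334, 0.0385, 0.0752 and 0.0913. SBDS, with 188 counts, has a near copy in SBDSP1, with 92 counts, and POLR1C, with 71, overlaps YIPF3 on the opposite strand, with 59, so both values are uncertain.

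TRMT112, the activator of methyltransferases that act on 18S rRNA and tRNA, fell by 0.30 on the log2 scale (SE 0.09; edgeR adjusted p = 0.0281), from 689, 753 and 653 CPM in siControl to 567, 553 and 579 CPM in siDelta2-4. The groups did not overlap. DKC1, the pseudouridine synthase of box H/ACA particles, was below the filter with 21 counts. DESeq2 kept the calls of NPM1 and TRMT112 and lost the other 4, and with the length trend removed those of TRMT112 (-0.185 on the log2 scale), POLR1C (0.945) and C1D (0.578) were lost. POLR1C and C1D lost their calls also with no filter, with transcript models held to the same count rule in both groups and with a replicate block. Without the siControl library of middle total 5 of the 6 calls were lost, NPM1 among them (0.30 on the log2 scale), and without the siDelta2-4 library of highest or of middle total all but NPM1 were lost. Each of the 6 kept its direction when any one library was left out. These calls and the 17 values above come from the same 6 libraries, and a difference between the 2 lists was not tested.

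**Figure D5:**
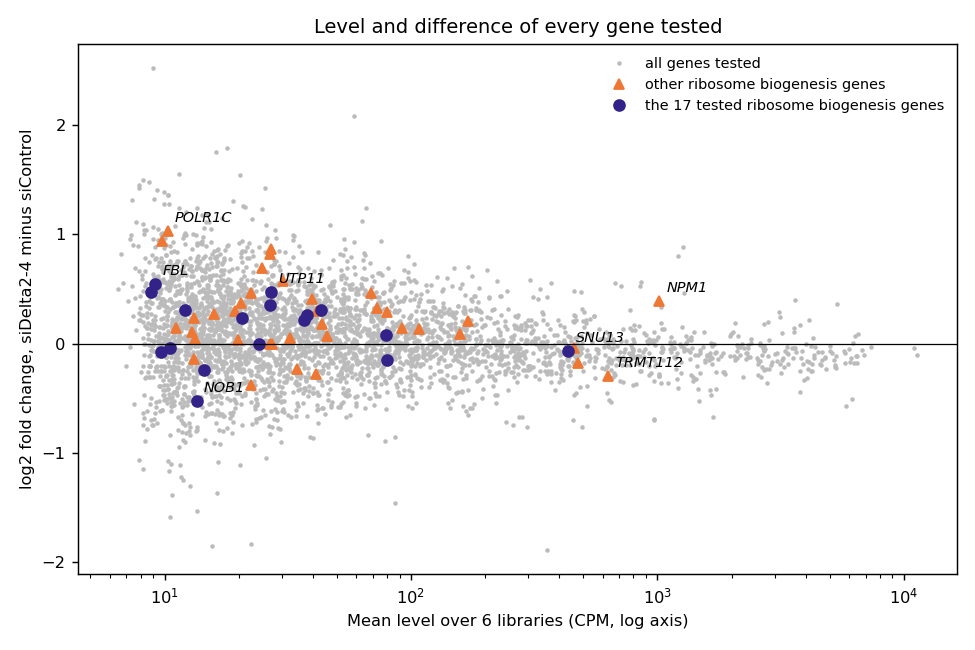
Mean level (CPM, log axis) against log2 fold change (siDelta2-4 minus siControl) for the 3888 genes tested (gray), with the 17 tested ribosome biogenesis genes (circles) and 37 other ribosome biogenesis genes (triangles). The circles lie between -0.53 and 0.55, and NPM1 at 0.39 and TRMT112 at -0.30 are the called genes of high level.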

How the data were processed

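Per the labels and the study's methods, nanopore cDNA reads were aligned to GRCh38.p14 with minimap2 2.14 and SAMtools 1.13, cleaned with TranscriptClean and assigned to GENCODE transcript models with TALON. The authors deposited raw counts per transcript model and library (21472 models, 10072 genes), with low-support new models removed. Columns of all 6 libraries were used. Here counts were summed per gene, filtered with filterByExpr (minimum count 10), scaled by TMM and tested with edgeR 4.0.16 (R 4.3.3) by the two-sided quasi-likelihood test, 3 siControl against 3 siDelta2-4, Benjamini-Hochberg over 3888 genes, called at an adjusted p under 0.1. CPM used the same scaling. Models were tested likewise, and model shares with diffSpliceDGE. Scripts were tested on simulated data. DESeq2 1.42.0 and other filters, scalings and left-out libraries were alternatives. Totals of 1037468 to 1309241 counts limit genes of low count. No 2 libraries of a group agreed within sampling noise (chi-square per degree of freedom 1.51 to 3.7). All 35 members are accounted for. Values in every library are given for called members, the 5 with the highest mean CPM and those whose CPM did not overlap. Of the other pathway genes the called ones, NPM1 and DKC1 are named. UTP11, NOB1 and GNL3 were added as the members with the smallest p or the lowest value, after these were seen. The members and lists were chosen with earlier results of these data known.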

Additional observations from a re-analysis of the deposited data

How the results depend on the processing

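The count of called members stayed at 0 under every alternative run, at gene, model and usage level. The median log2 fold change of the tested members, 0.218, was 0.285 with library totals in place of TMM (median of all genes 0.095), 0.086 with at least 10 counts in every library, 0.119 on known models and 0.122 with the length trend removed. Without single libraries it ran from 0.046 to 0.21. With no filter the median of all genes moved to 0.192, above which the members' 0.244 lay only a little. Column numbers did not pair the libraries (correlations 0.039, -0.136 and -0.0843), and a replicate block gave 0 called members, a median of 0.225 and 299 called genes in place of 504. DESeq2 called 254 genes, and without single libraries 194 to 1041 were called. Of 267 single-gene comparisons 15 reversed, in 6 members, among them NIP7 with a main value of 0.31: SNU13 0.003 and NOP56 0.024 with library totals, EMG1 -0.022 with the length trend removed, and IMP3 -0.023 with DESeq2 or its size factors, -0.014 with no filter, -0.012 with annotated genes alone, -0.027 on known models and -0.054 with the length trend removed. Without single libraries NOP56 ran from -0.119 to 0.015, NIP7 from -0.16 to 0.60, WDR12 from -0.30 to 0.26 and IMP3 from -0.25 to 0.23. The cause was not tested. Summed CPM without SNU13 and of the large subunit, an alternative added after seeing the data, differed by 70.9 and 31.6 CPM with library totals, beside 50.6 and 21.9. Depth limits the members below the filter, where 3 counts are 2.3 to 2.92 CPM.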
